A study of Mus musculus with 96 samples.

Results

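General adipocyte genes are those that fat cells of any depot use to make, store and release lipid and to signal to other organs. The set examined here was fixed by name as the rows of the count table with the symbols *Adipoq*, *Plin1*, *Adig*, *Fabp4*, *Cfd*, *Lpl*, *Retn*, *Lep*, *Pparg* and *Car3*, and all 10 were found among 41575 gene symbols. The rule used symbols and no measured value. RNA was measured in 96 libraries by MuSeq, a bulk method that tags the cDNA of each sample with its own barcode and then pools samples. The tissues were vascular and adipose samples, bone, cartilage, muscle and heart, stomach, intestine, rectum and bladder, liver, kidney, spleen and lung, and cortex and hippocampus, from mice aged 3 weeks. The mice were wild-type or Scx-/-, with 3 libraries per tissue and genotype, and carried no other labelled allele or treatment. *Scx* encodes scleraxis, a transcription factor of tendon and ligament cells. Organs were taken whole and frozen. How the allele was made, the strain, and which libraries share a mouse were not given in the sources used here, so p-values refer to the spread of libraries only, and the tissues may not be independent of each other.

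Mature adipocytes keep triglyceride in a large droplet coated by perilipin, take up fatty acids freed from circulating lipoproteins, and secrete hormones such as adiponectin and leptin. Their identity depends on PPARγ, the product of *Pparg*, which binds DNA with a retinoid X receptor at paired half-sites and acts together with C/EBP factors. Fat is found in its own depots and also around vessels, in marrow, between muscle bundles and in the coats of many organs, so bulk samples of other tissues can hold some.

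The genes lie on separate stretches of the mouse genome, given here in GRCm38 (mm10) with gene bounds from GENCODE M21. *Adipoq* is at chr16:23146536-23158028, *Cfd* at chr10:79890853-79892655, *Retn* at chr8:3655770-3660110 and *Lep* at chr6:29060220-29073877. *Plin1* is at chr7:79720218-79732903, *Adig* at chr2:158502612-158508198, *Fabp4* at chr3:10204088-10208576 and *Lpl* at chr8:68880491-68907448. *Pparg* is at chr6:115360951-115490399 and *Car3* at chr3:14863512-14872523. *Fabp4* and *Car3* are both on chromosome 3, and *Retn* and *Lpl* both on chromosome 8. All are annotated as protein-coding. Promoter sequences from RefSeq (GRCm38.p6) matched 7 of the 10 genes, and *Fabp4*, *Lpl* and *Car3* had no entry. The 250 bases before the annotated start are printed for the secreted products and *Adig*, whose tissue patterns are set side by side below. Those of *Plin1*, whose window overlaps its GENCODE gene, and *Pparg*, which has 3 windows, are described only. Capitals mark AGGTCA, the half-site that nuclear receptors such as PPARγ recognise, and TTNNGCAA, a C/EBP-type sequence, each searched on both strands.
*Adipoq* (chr16:23146286-23146535, plus strand): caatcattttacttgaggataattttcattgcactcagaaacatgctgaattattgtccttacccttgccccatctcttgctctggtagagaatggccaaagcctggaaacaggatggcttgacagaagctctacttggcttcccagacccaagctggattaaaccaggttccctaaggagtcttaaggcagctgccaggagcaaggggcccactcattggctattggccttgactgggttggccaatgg
*Adig* (chr2:158502362-158502611, plus strand): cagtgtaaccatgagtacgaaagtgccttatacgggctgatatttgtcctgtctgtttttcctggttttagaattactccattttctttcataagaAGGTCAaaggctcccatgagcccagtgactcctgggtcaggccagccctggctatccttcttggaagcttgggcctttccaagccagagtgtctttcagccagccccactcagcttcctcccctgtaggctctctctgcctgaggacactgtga
*Cfd* (chr10:79890603-79890852, plus strand): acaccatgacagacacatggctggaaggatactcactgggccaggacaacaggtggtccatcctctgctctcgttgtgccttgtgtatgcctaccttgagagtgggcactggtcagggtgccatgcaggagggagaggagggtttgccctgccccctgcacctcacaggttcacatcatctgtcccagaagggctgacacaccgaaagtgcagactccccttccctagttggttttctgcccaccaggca
*Retn* (chr8:3655520-3655769, plus strand): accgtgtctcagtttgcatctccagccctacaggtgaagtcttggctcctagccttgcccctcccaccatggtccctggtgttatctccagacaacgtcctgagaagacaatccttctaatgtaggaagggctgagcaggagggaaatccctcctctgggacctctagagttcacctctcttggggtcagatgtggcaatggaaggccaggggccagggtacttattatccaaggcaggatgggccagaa
*Lep* (chr6:29059971-29060220, plus strand): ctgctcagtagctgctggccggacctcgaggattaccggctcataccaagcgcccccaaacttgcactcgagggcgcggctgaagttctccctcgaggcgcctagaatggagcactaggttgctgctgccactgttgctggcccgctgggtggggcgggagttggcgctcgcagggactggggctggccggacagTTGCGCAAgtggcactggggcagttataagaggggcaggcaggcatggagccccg
The *Adig* window held AGGTCA from base -154, counted back from the start, and the *Lep* window held TTGCGCAA from base -55, which reads as the C/EBP-type sequence on both strands. Neither motif was found in these windows of *Adipoq*, *Cfd* or *Retn*. The *Plin1* window held TTNNGCAA from bases -187 and -58, and of the 3 *Pparg* windows 2 held AGGTCA and 1 held TTNNGCAA. Among all 32851 promoter windows of the same length, 14.0% held AGGTCA and 9.56% held TTNNGCAA, so a match in 1 gene is a description of the letters only.

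Library totals ran from 11244 to 1658192 counts (median 251640), and the libraries on which most results rest were shallow, with 77132 to 354795 counts in vascular samples. *Scx* itself was counted in 12 of 48 wild-type libraries, in 8 tissues with 80 counts in all, and in 1 of 48 Scx-/- libraries, a cartilage library (replicate 1) with 9 counts, more than the 0, 7 and 1 of the wild-type cartilage libraries, so *Scx* there goes against the label. In 12 of 16 tissues, wild-type replicates 1 and 3 and Scx-/- replicate 1 had more *Xist* than Y-linked counts and the other 3 libraries the reverse, so sex differed between the groups in part. The adipose-labelled libraries carried 38.4 to 49.5% of their counts on 12 pancreatic acinar enzyme genes and 0.015 to 0.0504% (wild-type) and 0.00659 to 0.0189% (Scx-/-) on the 10 adipocyte genes. *Adig*, *Retn* and *Lep* were at 0 in all 6 of them. These libraries did not carry the defining genes of the tissue they are named for, and are called adipose-labelled below. The vascular libraries held both vessel wall smooth muscle genes (1.46 to 2.68% of wild-type and 1.65 to 3.68% of Scx-/- counts) and brown fat genes (0.831 to 1.58% and 0.429 to 0.727%), so what the vessel wall and what fat gave cannot be told apart in the vascular values below. The study related genes specific to vascular samples of both genotypes to brown fat. It took this as contamination of the samples and left the tissue out of its later comparisons.

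Across the 16 tissues, the adipocyte genes were concentrated in the vascular samples. They took 1.51 to 1.91% of counts in the wild-type and 1.19 to 2.06% in the Scx-/- vascular libraries. On the mean CPM (counts per 1000000 counts of the library) over the 6 libraries of a tissue, 7 of the 10 genes were highest in vascular samples, and the others were *Lpl* (heart), *Retn* (bladder) and *Car3* (cartilage). Levels are compared between tissues for 1 gene at a time. The study describes MuSeq as enriched for the tail end of RNA, and CPM is not put on a common scale between genes. In bulk samples, fewer adipocytes and less of a transcript per adipocyte cannot be told apart. The heat map of group means shows this bright vascular column and the near-empty cortex, hippocampus and lung columns for most genes.

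**Figure D1:**
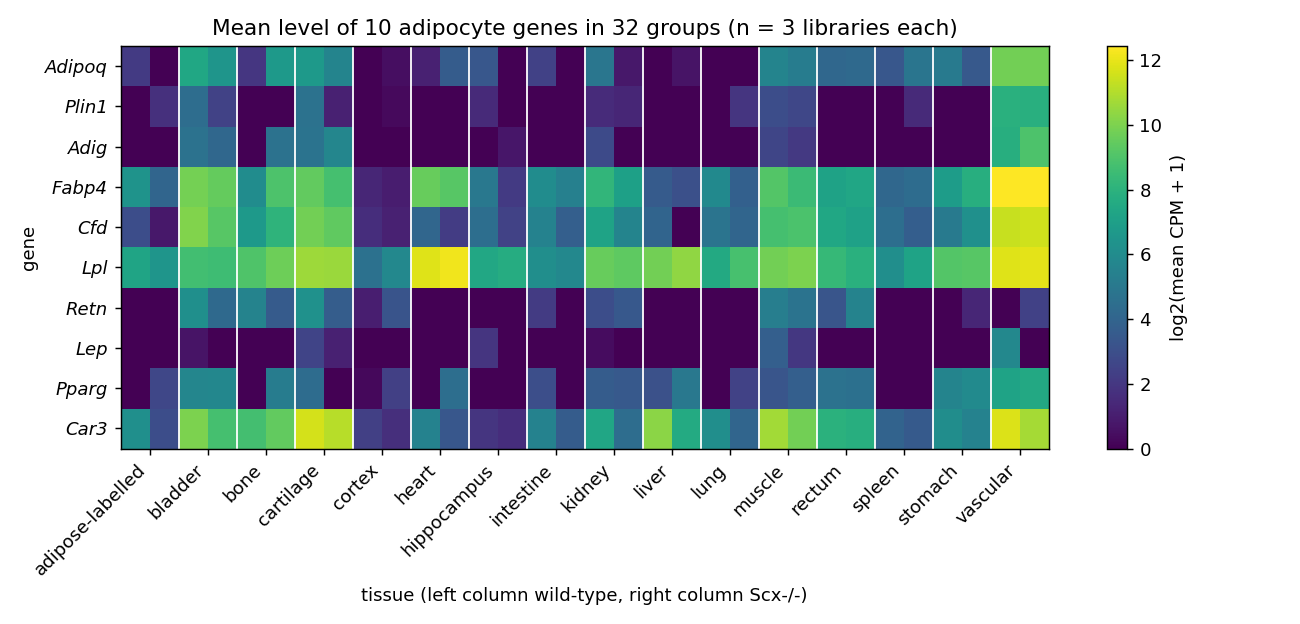
Mean level of each adipocyte gene (rows) in the 32 groups (columns, wild-type left and Scx-/- right within each tissue, 3 libraries each), as log2(mean CPM + 1). The 2 vascular columns are the brightest for *Adipoq*, *Plin1*, *Adig*, *Fabp4*, *Cfd* and *Pparg*, the wild-type one alone for *Lep* and *Car3*, and *Adig* and *Lep* are at 0 in most groups.

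Among the secreted products, *Adipoq* (adiponectin, an insulin-sensitising hormone made almost only by adipocytes) separated the vascular samples most cleanly. Its level there was 854, 1028 and 792 CPM in the wild-type libraries and 681, 1063 and 950.1 CPM in the Scx-/- libraries. Bladder came next, at 111, 25.0 and 364 CPM in wild-type and 58.2, 71.8 and 136 CPM in Scx-/- libraries. The vascular mean of 895 ± 146 CPM (SD, n = 6) was 7.02 times that of bladder, and no bladder library reached the lowest vascular one. Below bladder, cartilage (77.0 ± 72.3 CPM), bone (51.6 ± 64.3 CPM) and muscle (42.0 ± 52.6 CPM) overlapped each other library by library. *Adipoq* was counted once in all 6 liver libraries together and not at all in lung.

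*Cfd* (complement factor D, or adipsin, a serine protease secreted by fat) was broader. It reached 2049, 3693 and 2368 CPM in wild-type and 2187, 3578 and 3040.4 CPM in Scx-/- vascular libraries. In bladder the wild-type libraries spread from 14.3 to 2621 CPM, so that 1 bladder library lay within the vascular range while the other 5 were below it. Cartilage was steadier, at 1166, 750.0 and 747 CPM in wild-type and 616, 857 and 562 CPM in Scx-/- libraries. Muscle followed with 0, 1179.5 and 133 CPM and 395, 569 and 504 CPM, where the empty wild-type library was the shallow one of 30409 counts. *Cfd* had counts in all 16 tissues and in 75 of 96 libraries, against 15 tissues and 51 libraries for *Adipoq*.

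*Retn* did not share the vascular maximum of *Adipoq*, and *Lep* had too few counts to place beyond its highest tissue. *Retn* encodes resistin, a hormone that in rodents comes from white fat, and *Lep* encodes leptin, the satiety hormone whose output rises with fat stores. Vascular samples held 906 counts of *Adipoq* but 2 counts of *Retn*, both in 1 Scx-/- library. Bladder held 318 counts of *Adipoq* and 123 of *Retn*, muscle 213 and 159, and cartilage 113 and 68. Per 100 counts of *Adipoq*, those are 38.7, 74.6 and 60.2 counts of *Retn*, against 0.221 in vascular samples. Spleen had 26 counts of *Adipoq* and none of *Retn*, and stomach 57 and 2. Rectum and cortex had more counts of *Retn* than of *Adipoq*, at 44 and 25 counts and at 32 and 1. Both sums of a ratio come from the same 6 libraries, in which deeper ones weigh more, and scaling does not enter. In single libraries *Retn* was 44.2, 0 and 176 CPM in wild-type and 33.9, 15.6 and 4.12 CPM in Scx-/- bladder, and 0, 103 and 12.7 CPM in wild-type and 14.2, 34.9 and 27.7 CPM in Scx-/- muscle. Bladder, cartilage, muscle, bone and rectum overlapped throughout, and muscle took the first place from bladder when totals were scaled by TMM factors.

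*Lep* was counted in 9 of 96 libraries, with 89 counts in all. Of these, 41 were in vascular samples, as 28, 13 and 0 counts in the wild-type and 0, 0 and 0 in the Scx-/- libraries, and 33 were in 1 wild-type muscle library. That muscle library (replicate 2) was also the highest of the 6 muscle libraries for *Adipoq*, *Cfd*, *Fabp4*, *Lpl* and *Retn*. The wild-type bladder library, replicate 3, was likewise the highest bladder library for *Adipoq*, *Plin1*, *Adig*, *Fabp4*, *Cfd*, *Lpl*, *Retn* and *Car3*. In muscle, *Plin1*, *Adig*, *Pparg* and *Car3* were highest in other libraries. The plot of the 3 adipokines shows both libraries above the rest of their tissue.

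**Figure D2:**
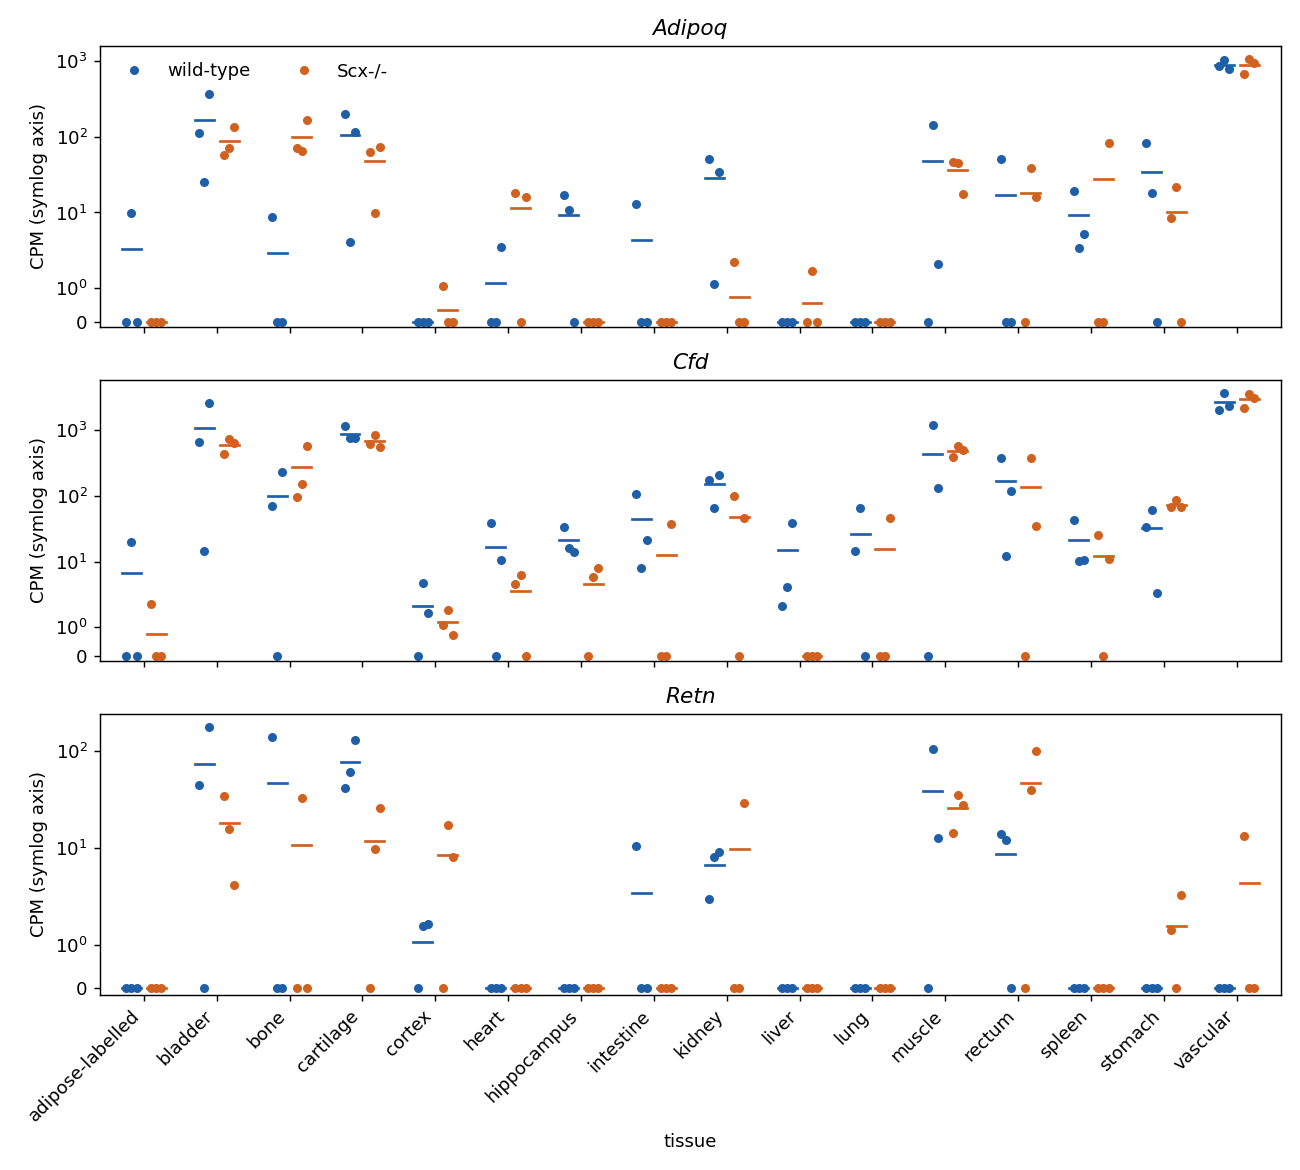
CPM of *Adipoq*, *Cfd* and *Retn* in each of 96 libraries, by tissue, on an axis that is linear below 1 and logarithmic above. Points are libraries (replicates 1 to 3 from left to right), bars are means of 3, and *Retn* is at 0 in all but 1 of the vascular libraries where *Adipoq* and *Cfd* are highest.

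The lipid droplet and endoplasmic reticulum proteins had the largest shares of their counts in vascular samples, 70.1% for *Plin1* and 67.2% for *Adig*. *Plin1* (perilipin 1, which coats the droplet and gates lipolysis) was 180.4, 304 and 229 CPM in wild-type and 19.6, 233 and 425 CPM in Scx-/- vascular libraries. It had 220 of its 314 counts there. Cartilage (12.9 ± 20.6 CPM, SD, n = 6) and bladder (12.7 ± 17.4 CPM) were next, 18.0 times lower or more, yet their highest libraries overlapped the lowest vascular one, Scx-/- replicate 1 at 19.6 CPM from 3 counts. *Adig* (adipogenin, a small membrane protein that promotes droplet formation) was 200.1, 272 and 202 CPM in wild-type and 255, 545 and 682 CPM in Scx-/- vascular libraries, and the next tissue, cartilage, at 38.7 ± 30.2 CPM, did not overlap them. *Adig* was detected in 7 of 16 tissues, and *Plin1* in 10.

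The fatty acid handling genes were present in nearly every tissue. *Fabp4* (a fatty acid carrier of adipocytes that capillary endothelium also makes) was 5674, 5432 and 5184 CPM in wild-type and 5351, 7507 and 3789 CPM in Scx-/- vascular libraries. Its vascular mean of 5489.5 ± 1192 CPM was 6.68 times that of bladder, with no overlap. Bladder (821 ± 413 CPM), heart (667 ± 237 CPM) and cartilage (561 ± 219.9 CPM) overlapped each other library by library. *Lpl* (lipoprotein lipase, which frees fatty acids at the capillary wall and is also made by heart and muscle) was highest in heart, at 4646, 2312 and 4056 CPM in wild-type and 4908, 3836 and 4859 CPM in Scx-/- libraries. Vascular samples were close behind at 3766, 3945 and 3256 CPM and 4676, 5043 and 1844 CPM, and the ranges overlapped. *Lpl* had 3925 of its 26230 counts in vascular samples, and *Adipoq* 906 of 1788.

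*Pparg* was counted in 14 of 16 tissues at low levels. Vascular libraries held 161, 97.0 and 179 CPM (wild-type) and 236, 233 and 67.1 CPM (Scx-/-). Stomach (54.4 ± 25.7 CPM) and bladder (52.1 ± 31.8 CPM) were 2.98 times lower or more on the mean, but overlapped the lowest vascular library, which had 6 counts. In the stomach *Plin1*, *Adig* and *Lep* were at 0 in all 6 libraries, while *Adipoq* had 57 counts in 4 of them, and *Cfd*, *Fabp4* and *Lpl* were counted in all 6 (136, 405 and 1352 counts).

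*Car3* (carbonic anhydrase III, an abundant cytosolic enzyme of adipocytes, slow muscle fibres and liver) was abundant in several tissues. Cartilage (2697 ± 1238 CPM) and vascular samples (2617 ± 1136 CPM) led, followed by muscle (1299 ± 596 CPM), bladder (713 ± 653 CPM) and liver (711 ± 791 CPM). Each of these overlapped the next in order. The liver held *Car3* and *Lpl* with 1 count of *Adipoq* and 0 of *Plin1*, *Adig*, *Retn* and *Lep*, and had 60 counts of *Pparg* and 29 of *Fabp4*.

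The vascular level was then tested against the average of the other 15 tissues in 1 fit over 32 groups (edgeR's quasi-likelihood test, Benjamini-Hochberg adjustment over 13459 genes). The fit kept genes that reached 39.7 CPM in at least 3 libraries, and 6.2% of them were called higher in vascular samples, with a median log2 difference of -0.52. *Plin1* reached that level in 5 vascular and 2 other libraries, so it was kept only through the group where it was high and its value is a description. No count or median over the adipocyte genes kept is given for that reason. The difference was 8.04 ± 0.53 (SE) for *Adig*, 7.43 ± 0.62 for *Plin1*, 6.87 ± 0.36 for *Adipoq*, 6.01 ± 0.32 for *Cfd* and 5.91 ± 0.19 for *Fabp4*. It was smaller for *Pparg* (4.85 ± 0.55), *Car3* (4.73 ± 0.27) and *Lpl* (3.07 ± 0.23). The largest edgeR adjusted p among these genes was 3.03e-14. Several other groups were at 0 for *Adig*, *Plin1* and *Adipoq*, so these fitted sizes depend on how zeros are handled. *Retn* gave no usable estimate, because whole groups were at 0, and *Lep* did not pass the expression filter.

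The vascular samples were next set against the adipose-labelled ones, gene by gene. *Cfd* had 2697 counts in vascular and 3 in adipose-labelled libraries, a ratio on library totals of 1388 with an exact 95% counting interval of 475 to 6736. *Adipoq* had 906 and 1, a ratio of 1399 (250.5 to 55323). *Plin1* had 220 and 3, a ratio of 113 (38.2 to 553). In the edgeR fit the folds were lower, at 386 for *Cfd*, 284 for *Adipoq* and 39.5 for *Plin1*. That fit used TMM-scaled totals and single libraries in place of summed counts, so the drop is not that of scaling alone. *Adig*, with 299 counts against 0, was at least 154-fold higher in vascular samples on library totals, taking 3 counts over the group as the floor. *Lep*, with 41 against 0, was at least 21.1-fold higher on the same totals, although the vascular counts came from 2 libraries. In the TMM-scaled fit the fold of *Lep* was 11.9, below that bound. No fold is given for *Retn*, with 2 counts against 0.

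*Fabp4*, *Lpl* and *Car3* had at least 1 count in every adipose-labelled library, at 5.99 to 124, 9.95 to 371 and 2.01 to 199 CPM, against 3789 to 7507, 1844 to 5043 and 1129 to 4275 CPM in vascular samples. In the edgeR fit with genotype as a covariate, 8 of 10 adipocyte genes were higher in vascular samples, against 2.25% of 13838 genes, and none was lower, against 1.72%. Over the 10, the median log2 difference was 5.33, beside 0.62 over all genes. *Adig*, *Lep* and *Retn* were in this fit through their vascular counts alone, so the count and median are descriptions. The 2 not called were *Lep* (edgeR adjusted p = 0.3) and *Retn* (edgeR adjusted p = 0.508), and *Pparg* (4.01 ± 1.24, edgeR adjusted p = 0.0363) lost its call when single libraries were left out. The plot of both tissues side by side shows the gap for each gene.

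**Figure D3:**
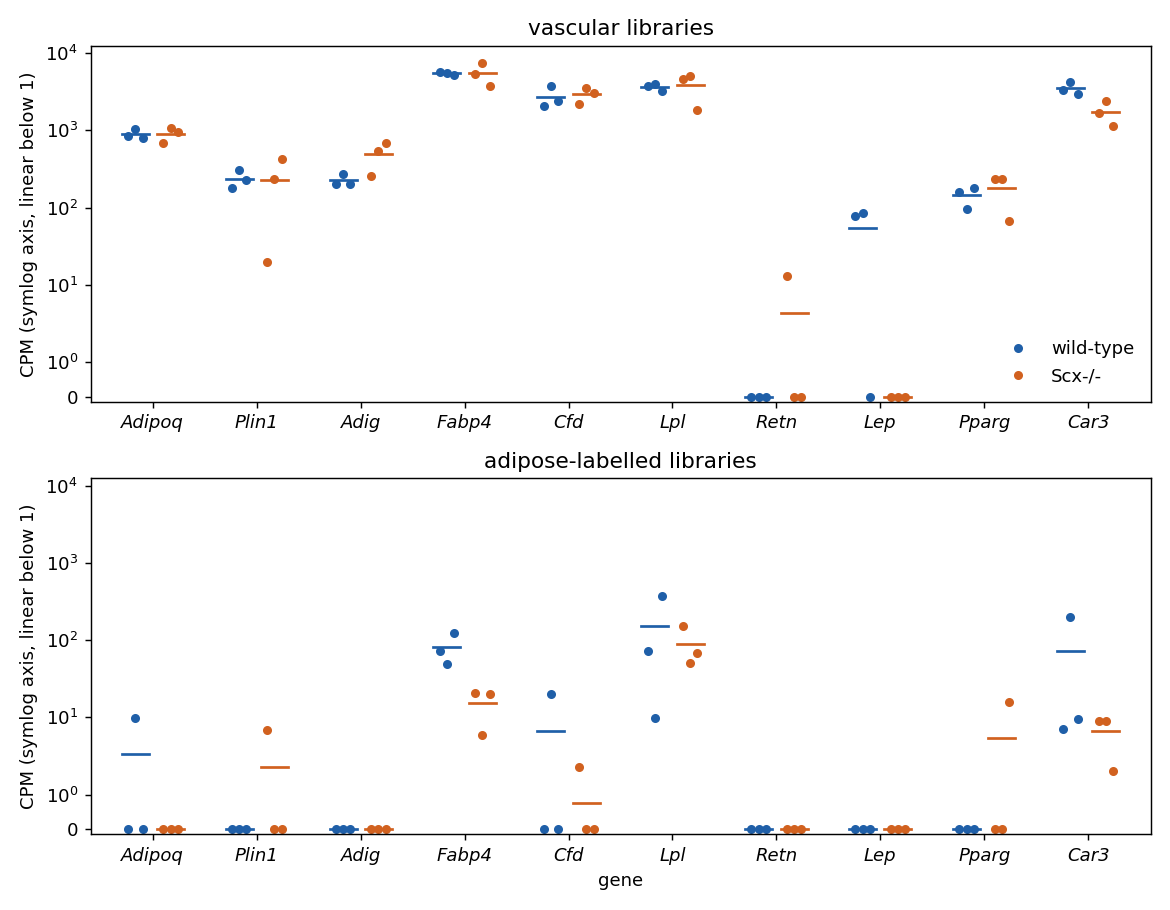
CPM of each adipocyte gene in the 6 vascular (top) and 6 adipose-labelled (bottom) libraries, on an axis that is linear below 1 and logarithmic above. Points are libraries, and bars are means of 3 libraries. For all genes but *Retn* and *Lep*, every vascular library is above every adipose-labelled one, and *Lep* has its 41 counts in 2 wild-type vascular libraries.

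Other genes of the adipocyte programme, taken from lists fixed by name, were higher in vascular than in adipose-labelled libraries in the same fit. The shares of all genes called there, 2.25% higher and 1.72% lower, are the background of each count. Of the triglyceride synthesis genes 8 of 15 were called higher, with *Pck1* (glyceroneogenesis) at 2868 ± 974 CPM, *Gpd1* (glycerol-3-phosphate supply) at 2692 ± 1199.5 CPM, *Dgat2* (the last step to triglyceride) at 1268 ± 363 CPM and *Thrsp* at 1189.8 ± 436 CPM in vascular samples (SD, n = 6). Of the lipolysis genes 4 of 7 were called higher, among them *Pnpla2* (adipose triglyceride lipase, log2 difference 5.80) and *Lipe* (hormone-sensitive lipase, 4.01). Of the droplet and caveola genes 7 of 9 tested were called higher, led in level by *Ptrf* (957 ± 243 CPM, the older symbol of *Cavin1*), *Cav1* (709 ± 161 CPM), *Cidec* (580.1 ± 259 CPM) and *Plin4* (569.6 ± 148 CPM).

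Uptake genes were called higher for 3 of 8, *Cd36*, *Acsl1* and *Aqp7*, and adipocyte transcription factors for 3 of 8, *Cebpa*, *Cebpb* and *Ppara*. Of the other adipokines 1 of 8, *Nampt*, was called. None of these lists had a member called lower. Brown fat genes were called higher for 8 of 12, including *Ucp1* (the uncoupling protein of brown fat) with a log2 difference of 7.19, *Cox8b* (5.98) and *Cidea* (5.80). Vessel wall smooth muscle genes were called for 5 of 10 (*Eln* at 16518 ± 5525 CPM and *Acta2* at 4446 ± 1740.2 CPM), while 0 of 9 endothelial and 0 of 7 adipose progenitor genes were called by edgeR, with 1 in each higher at an unadjusted p under 0.05, beside 10.3% of all genes. All 10 pancreatic genes tested were lower.

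Over the 32 group means, the genes outside the set whose pattern was most like that of *Adipoq* were *Cercam*, *Mfap5*, *Aoc3*, *Ifi27l2a*, *Cpz*, *Lgals1*, *Hoxc4*, *Il3ra*, *Mum1l1* and *Mbnl1*, with Pearson r of 0.75 down to 0.69 on log2(mean CPM + 1) among 17411 genes with at least 10 CPM in some group. *Cfd* (r = 0.85), *Adig* (0.83) and *Fabp4* (0.82) stood above all of these, and *Plin1* (0.73) and *Car3* (0.68) close to them. *Pparg* (0.63), *Lep* (0.53), *Lpl* (0.52) and *Retn* (0.45) were less alike. These are descriptions over groups that share tissues and differ in depth, and 6 of the 10 names stayed when Spearman's rho or a pseudocount of 0.1 was used.

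Between genotypes, the adipocyte genes gave few calls, all of them for *Car3*. Each tissue was fitted alone (edgeR's quasi-likelihood test, 3 against 3, Benjamini-Hochberg adjustment over all genes of the tissue). Of 160 gene and tissue pairs, 108 had more than 3 counts in a group. *Car3* was lower in Scx-/- liver, kidney and vascular samples, and no other pair passed, which makes 3 calls in 126 pairs tested, beside 0.0914% of all pairs of genes and tissues. At an unadjusted p under 0.05 there were 12 pairs, 10 lower and 2 higher in Scx-/-, beside 4.01% of all pairs, and 11 of them also had an absolute log2 fold change above 1, beside 3.71%. DESeq2 called 1 pair, *Car3* in liver. The CPM of the 2 genotypes did not overlap in 13 of the 108 pairs, 8 lower and 5 higher in Scx-/-, beside 9.32% of all pairs with more than 3 counts in a group.

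In the liver, *Car3* was 999, 2189 and 497 CPM in wild-type and 277, 117 and 188 CPM in Scx-/- libraries. Every Scx-/- library was below every wild-type one. It fell by 2.44 ± 0.30 on the log2 scale, edgeR adjusted p = 1.08e-11, in a tissue where 0.142% of genes were called lower and the median gene moved by 0.22, or 0.0468 on library totals. Within libraries with more *Xist* than Y-linked counts the values were 999 and 497 CPM against 277 CPM, and within the others 2189 CPM against 117 and 188 CPM. With that difference as a term in the fit it fell by 2.43, edgeR adjusted p = 2e-10. The call held with each library left out, with log2 differences from -2.84 to -1.80, and was lost with the filterByExpr gene filter (edgeR adjusted p = 0.0913) and in the fit over all 96 libraries (edgeR adjusted p = 0.838).

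The other liver members gave no call. *Lpl* was 816, 612 and 1207 CPM in wild-type and 1418, 1349 and 1188 CPM in Scx-/- libraries, a log2 difference of 0.77 ± 0.25 with an edgeR adjusted p of 0.279, and 1 wild-type library, replicate 3, lay within the Scx-/- range. Without that library *Lpl* was called (1.03, edgeR adjusted p = 0.0244). *Cfd* had 13 counts in wild-type and 0 in Scx-/- liver, at least 8.31-fold lower against a floor of 3 counts over the group, with 11 of the 13 counts in 1 library. Without *Car3*, the other 9 genes took 0.0632 to 0.125% of wild-type and 0.127 to 0.143% of Scx-/- liver counts, most of them from *Lpl*. *Rbp4*, the retinol carrier that the liver and fat both secrete, was the only gene of the other adipocyte lists called in the liver, with a log2 difference of 0.91 ± 0.17 (edgeR adjusted p = 6.62e-05).

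In the kidney, *Car3* was 190.1, 84.1 and 208 CPM in wild-type and 60.4, 3.07 and 0 CPM in Scx-/- libraries, from 193, 74 and 140 and 27, 1 and 0 counts. The groups did not overlap, and 1 Scx-/- library had none. It fell by 2.84 ± 0.58 on the log2 scale, edgeR adjusted p = 0.00125, beside 0.117% of genes called lower and a median gene moved by -0.28, or -0.17 on library totals. By the sex-linked counts, *Car3* was 190.1 and 208 against 60.4 CPM within the *Xist*-high libraries and 84.1 against 3.07 and 0 CPM within the others, and with that term it fell by 2.91 (edgeR adjusted p = 0.0023). It fell by 6.47 without Scx-/- replicate 1, which held 27 of the 28 Scx-/- counts. The call was lost without wild-type replicate 1 (edgeR adjusted p = 0.127) or wild-type replicate 3 (0.138), with filterByExpr (0.544), with DESeq2 (0.993) and in the fit over 96 libraries (1).

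Several other adipocyte genes in the kidney had lower means in Scx-/- mice without passing. *Adipoq* had 52, 1 and 23 counts in wild-type and 1, 0 and 0 in Scx-/- libraries, a count ratio of 30.1 with an exact 95% counting interval of 5.23 to 1203, and edgeR adjusted p = 0.791. Its fitted log2 difference of -4.77 became -7.20 without Scx-/- replicate 1 and -4.04 without wild-type replicate 1. *Cfd* was 173, 65.9 and 208 CPM against 98.4, 0 and 45.4 CPM (-1.68 ± 0.53, edgeR adjusted p = 0.354). *Fabp4* was 332, 150.0 and 382 CPM against 165, 123 and 111 CPM (-1.20 ± 0.37, edgeR adjusted p = 0.317). The lowest wild-type library for *Adipoq*, *Cfd* and *Fabp4* was replicate 2, which lay among the Scx-/- values. Without Scx-/- replicate 1, *Cfd* was called (-2.92, edgeR adjusted p = 0.00677). Without *Car3*, the other 9 genes took 0.116 to 0.128% of wild-type and 0.0602 to 0.0975% of Scx-/- kidney counts. The part of this share in the *Car3* difference was not tested.

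In vascular samples, *Car3* was 3298, 4275 and 2926 CPM in wild-type and 1677, 2398 and 1129 CPM in Scx-/- libraries. The groups did not overlap. It fell by 1.42 ± 0.31 on the log2 scale (edgeR adjusted p = 0.0157), where the median of all genes moved by -0.51, or -0.14 on library totals, and 0.0329% of genes, 4 of 12172, were called lower. Within the *Xist*-high libraries *Car3* was 3298 and 2926 against 1677 CPM, and within the others 4275 against 2398 and 1129 CPM, and with that term the log2 difference was -1.42 as before, at an edgeR adjusted p of 0.0673. *Ucp1* was another of the 4 (none was called with filterByExpr or DESeq2), at 2790, 7741 and 5537 CPM against 2443, 1452 and 939 CPM. The *Car3* call was lost in 12 of 15 alternatives, among them scaling by library totals (a log2 difference of -1.01, edgeR adjusted p = 0.682) and leaving out wild-type replicate 1 (0.558), wild-type replicate 2 (0.462), Scx-/- replicate 1 (0.0711) or Scx-/- replicate 3 (0.162).

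No other adipocyte gene passed the test in these libraries, and the median log2 difference of the 10 was -0.37. Without *Car3*, the 9 others took 1.22 to 1.49% of wild-type and 1.08 to 1.82% of Scx-/- vascular counts. *Adipoq* was 892 ± 122 CPM in wild-type and 898 ± 196 CPM in Scx-/- samples (SD, n = 3), *Fabp4* 5430.2 ± 245 and 5549 ± 1867 CPM, and *Cfd* 2703 ± 872 and 2935 ± 701 CPM. Fitted log2 differences were -0.40 ± 0.42, -0.40 ± 0.25 and -0.26 ± 0.30, all nearer 0 than the median gene, and above 0 on library totals. Of the members with more than 3 counts, only *Adig* had a higher fitted level in Scx-/- samples (0.73 ± 0.60, edgeR adjusted p = 0.672), while *Plin1* (-0.48 ± 0.72), *Lpl* (-0.34 ± 0.28) and *Pparg* (-0.14 ± 0.86) did not pass either.

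*Lep* was at least 6.0-fold lower in Scx-/- vascular samples against the floor of 3 counts, with an edgeR adjusted p of 0.672 and 1 wild-type library also at 0. Of the other adipocyte lists, 0 of 8 transcription factors, 0 of 8 uptake, 0 of 14 triglyceride synthesis, 0 of 7 lipolysis and 0 of 9 droplet genes were called between genotypes by edgeR, with 0, 0, 6, 2 and 0 lower at an unadjusted p under 0.05, beside 2.62% of all vascular genes, and none called by DESeq2. Of 12 brown fat genes *Ucp1* was called lower and 5 were lower at an unadjusted p under 0.05, with a median log2 difference of -1.27 beside -0.51 over all genes, and the share of that list given above did not overlap between genotypes. Of 10 vessel wall smooth muscle genes 0 were called by edgeR, 2 were higher at an unadjusted p under 0.05, beside 1.72% of all vascular genes, and 0 were lower, with a median of 0.50. Genes of skeletal muscle, which also makes *Car3*, were low. Fast fibre genes took 0.0341 to 0.0517% and 0.0458 to 0.0739%, and slow fibre genes 0.0223 to 0.0339% and 0.0298 to 0.0961%. The part of any of these tissues in the *Car3* difference was not tested.

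**Figure D4:**
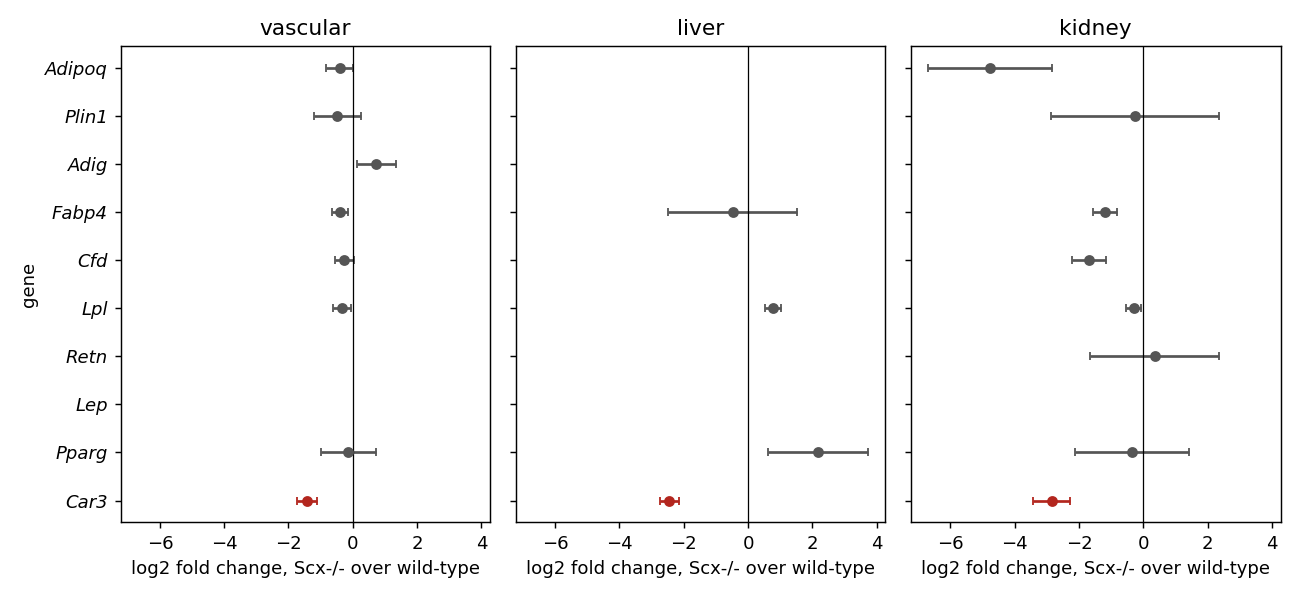
Log2 fold change (Scx-/- over wild-type) with its standard error for each adipocyte gene in vascular, liver and kidney samples, from fits of 3 against 3 libraries. Red points passed an adjusted p of 0.05 (*Car3*, at -1.42, -2.44 and -2.84), grey points did not, and genes with a group at 0 or with at most 3 counts in both groups are left out.

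Over all tissues the mean CPM of *Car3* on library totals was lower in Scx-/- libraries in 15 of 16, and higher in bone (243, 402 and 637 CPM against 698, 571 and 804 CPM). On TMM-scaled totals the fitted difference in rectum was above 0 (0.11 ± 0.83). Hippocampus, with 1 count in wild-type and 3 in Scx-/- libraries, and cortex, with 8 and 7, were near the floor. How many of all genes have such a tally was not computed. Lung also had no overlap, at 64.3, 107 and 37.6 CPM against 16.5, 30.8 and 0 CPM from 29 and 9 counts, without passing (edgeR adjusted p = 0.825). Bladder came closest to a further call, at 566, 394 and 2028 CPM in wild-type and 319.9, 584 and 387 CPM in Scx-/- libraries (-1.26 ± 0.31, edgeR adjusted p = 0.054). That difference rested on wild-type replicate 3, without which it was -0.24 ± 0.35, while it was called without wild-type replicate 1 (-1.53), wild-type replicate 2 (-1.63) or Scx-/- replicate 2 (-1.57). In muscle and cartilage, where *Car3* was abundant, it was 2072, 1959 and 1078 against 1201, 928 and 559 CPM and 2410.3, 4988 and 2085 against 2882, 2493 and 1326 CPM, and the groups overlapped in both, in cartilage also without the Scx-/- library of 2882 CPM, whose *Scx* counts go against its label. *Lep* had a lower mean in each of the 6 tissues where it was counted, from 89 counts in all. *Adipoq* had a lower mean in 8 tissues and a higher one in 7, *Fabp4* in 11 and 5, *Cfd* in 12 and 4, *Lpl* in 6 and 10, and *Pparg* in 4 and 10. For *Retn* the numbers were 5 and 5, for *Plin1* 6 and 4, and for *Adig* 3 and 4.

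Whether the *Car3* difference in a tissue exceeded that in the other 15 was tested in the fit over 96 libraries. The extra log2 difference was -1.74 ± 0.94 in kidney, -1.21 ± 0.80 in liver and -0.36 ± 0.81 in vascular samples, with an edgeR adjusted p of 1 in each. By this edgeR test 0% of 13459 genes were called in any of the 3 tissues, and 154, 264 and 452 genes had an unadjusted p under 0.05, none of them among the adipocyte genes. The difference is therefore not shown to be particular to any of these tissues. For 5 or 6 of the 9 adipocyte genes in the fit the test was void, because groups at 0 left errors too large to use. Every library is shown in the plot of *Car3* by tissue.

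**Figure D5:**
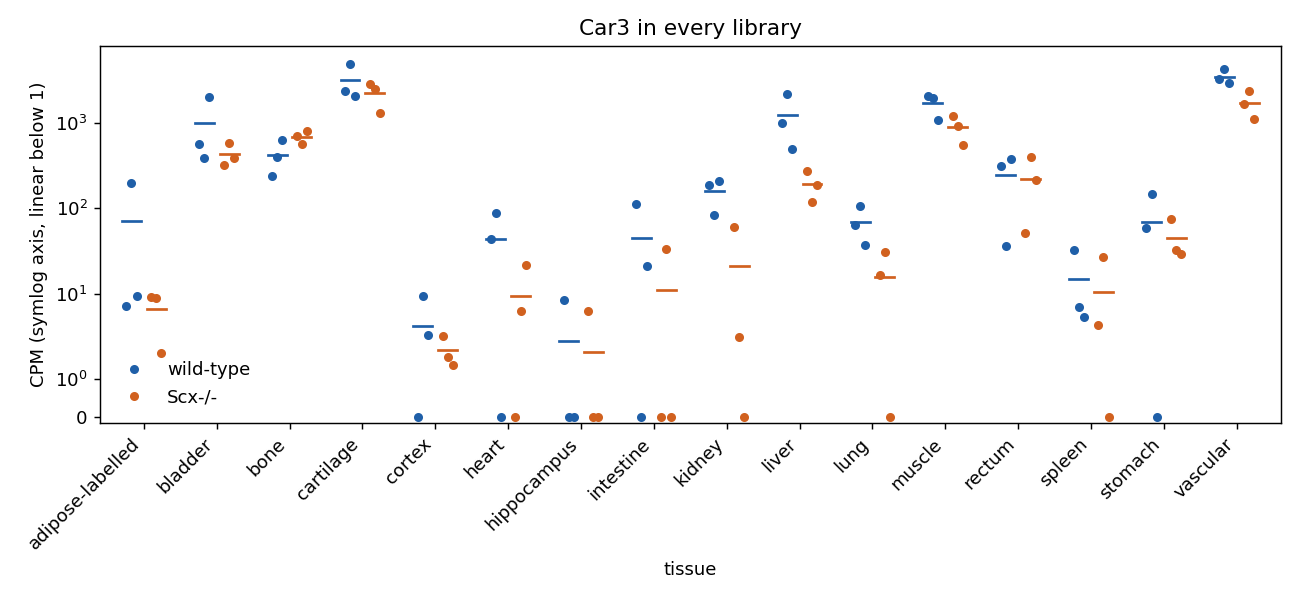
CPM of *Car3* in each of 96 libraries, by tissue and genotype, on an axis that is linear below 1 and logarithmic above. Points are libraries and bars are means of 3, and the genotypes do not overlap in kidney, liver, lung and vascular samples, where every Scx-/- library is lower.

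Among the pairs that did not pass, some were higher and some lower in Scx-/- libraries. In bone, *Fabp4* was 34.7, 117 and 42.4 CPM in wild-type and 482, 467 and 544 CPM in Scx-/- libraries, with no overlap (3.07 ± 1.03, edgeR adjusted p = 0.636). *Adipoq* in bone had 1, 0 and 0 counts against 17, 8 and 7 counts, also with no overlap, a count ratio of 17.5 (exact 95% counting interval 2.92 to 711), with edgeR adjusted p = 0.636. *Pparg* in bone was counted in 2 Scx-/- libraries and in no wild-type library. Bone totals were low, from 47131 to 115368 counts in wild-type and 42272 to 240564 in Scx-/- libraries. *Pparg* in heart had 0, 0 and 0 counts in wild-type and 1, 7 and 3 in Scx-/- libraries, with no overlap and an edgeR adjusted p of 0.738. *Retn* had a lower mean in Scx-/- libraries in 5 tissues and a higher one in 5. Higher means included rectum (4 counts in wild-type and 40 in Scx-/-) and cortex (2 and 30), without passing. Lower means of *Retn* included bone, cartilage and bladder. In bone it had 16, 0 and 0 counts in wild-type and 0, 4 and 0 in Scx-/- libraries, with overlap. In cartilage *Retn* was 41.3, 60.5 and 127 CPM in wild-type and 0, 9.74 and 25.4 CPM in Scx-/- libraries, with no overlap and an edgeR adjusted p of 0.769, and in bladder it was lower on the mean (-1.99 ± 0.98, edgeR adjusted p = 0.804) with overlap. The cartilage value of 0 is that of the library whose *Scx* counts go against its label. The bladder difference ran from -2.84 without Scx-/- replicate 1 to -0.34 without wild-type replicate 3, and was -0.72 with the replicate block and 0.11 with the sex term.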

How the data were processed

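MuSeq libraries of 96 bulk samples (16 tissues, 2 genotypes, 3 replicates) were analysed, with groups taken from the sample labels. Per the labels and methods, the authors made libraries with Nextera XT, aligned them to the mm10 genome (Bowtie2, default settings) and obtained gene counts with HTSeq. The deposited values are raw counts per gene symbol, without normalization, and 0 columns were left unmapped. The sources used here do not give tool versions, annotation, strand setting or use of molecular identifiers, and sense and antisense reads cannot be told apart. Totals were 11244 to 1658192 counts, which limits precision, and intervals and floors cover counting error only.

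CPM used library totals. Tests were edgeR 4.0.16 (R 4.3.3) quasi-likelihood F tests on TMM-scaled totals, with robust dispersions and adjustment after Benjamini and Hochberg, at an adjusted p under 0.05, after removing genes at 0 in all libraries of the fit. The fit over 96 libraries used genes passing filterByExpr. DESeq2 1.42.0, RLE factors, library totals, other filters, thinning, a replicate block and leaving out each library were alternatives, and a sex term was added after the data were seen. Scripts were tested on simulated data. The members, lists and named genes (the 10 members, *Scx*, *Ucp1*, up to 4 highest members of each list in the tissue described, and the 10 genes most like *Adipoq*) were chosen with earlier results of these data known. Genes outside this rule that are named for a count of 5 or fewer were chosen after their values were seen. No macrophage gene was called in any comparison, and among neutrophil genes only *Ltf*, in rectum. Python 3.11.15 with numpy 2.4.6, pandas 2.3.3 and matplotlib 3.10.9 was used.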

Additional observations from a re-analysis of the deposited data

Results flagged for a closer look

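The means of *Fabp4* and *Cfd* were higher in Scx-/- libraries of some tissues and lower in others, with no overlap between the 3 wild-type and 3 Scx-/- libraries in each. Of these pairs only *Cfd* in liver was tested against the other 15 tissues, with an extra log2 difference of -4.77 ± 2.96 that did not pass. For the other pairs the difference between tissues was not tested. For *Fabp4* the mean in Scx-/- minus that in wild-type was 433 CPM in bone and 102 CPM in stomach, but -66.0 CPM in adipose-labelled libraries. For *Cfd* it was 41.4 CPM in stomach, but -16.8 CPM in hippocampus and -15.0 CPM in liver. None of the 6 pairs passed the adjusted threshold in edgeR, and the *Cfd* values in hippocampus and liver rest on 14 and 13 counts. Groups fail to overlap for 13 of 108 pairs of adipocyte genes and tissues with more than 3 counts in a group, close to the 9.32% over all genes, so nothing is read from it about the adipocyte genes.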

How the results depend on the processing

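Of 160 pairs, 3 were called, and the number was 0 with filterByExpr, 1 with DESeq2, 0 in the joint fit over 96 libraries, and 2 to 5 with a library left out. It was 11 at the study's thresholds (unadjusted p under 0.05 and an absolute log2 fold change above 1), beside 3.71% of all pairs. These thresholds were applied here to the edgeR fits, whereas the study used DESeq2. The *Car3* call was lost in vascular samples (log2 -1.42) with RLE scaling (-1.21), library totals (-1.01), filterByExpr (-1.25), no genes removed (-1.42), thinned libraries (-1.26), DESeq2 (-1.21), the sex term (-1.42), the joint fit (-1.49) and 4 of the 6 left-out libraries, over all 6 of which it ran from -1.60 to -1.17. In kidney it was lost with filterByExpr (-2.78), DESeq2 (-2.88), the joint fit (-2.79) and without wild-type replicate 1 (-2.71) or 3 (-2.65), over a range of -6.47 to -2.31 for all 6 left out, and in liver with filterByExpr (-2.54) and the joint fit (-2.29). The cause was not tested. With the replicate block, which pairs libraries that share only a number, the 3 calls held (-1.45 in vascular, -3.64 in kidney and -2.26 in liver), and in no tissue did all 3 same-numbered pairs deviate together.

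Genes called in vascular samples numbered 4, and 2 with RLE scaling, library totals or no genes removed, 0 with filterByExpr or DESeq2, and 3 to 5 with a library left out. Uncalled vascular differences changed sign on library totals for *Adipoq* (0.00897), *Fabp4* (0.0309), *Cfd* (0.12), *Lpl* (0.0767) and *Pparg* (0.30), for *Pparg* also with RLE scaling (0.0755), filterByExpr (0.0332), DESeq2 (0.0773) and the sex term (0.21), and for *Retn* in bladder with the sex term (0.11; -2.84 to -0.34 with a library left out). With a library left out they ran from -0.51 to 0.28 for *Pparg*, -1.41 to 0.0713 for *Plin1* and -0.60 to 0.0279 for *Lpl*. Left-out libraries brought calls for *Cfd* in kidney (-2.92 without Scx-/- replicate 1), *Lpl* in liver (1.03 without wild-type replicate 3) and *Car3* in bladder (down to -1.63). Higher calls in vascular samples were 7 to 8 against adipose-labelled libraries, a description as above, and 7 to 9 genes were highest there, in all alternatives run. Against the other tissues the same genes were called in all alternatives run, among them *Plin1*, which the filter kept only through vascular samples. Of the 10 genes most like *Adipoq*, 6 stayed with Spearman's rho and 6 with a pseudocount of 0.1. Depth limits the genes of few counts, since 1 count was worth 0.603 to 88.9 CPM.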

Other observations

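*Ucp1*, the uncoupling protein of brown fat, was called lower by edgeR in Scx-/- samples of 3 tissues. In vascular samples it had 990, 1197 and 1209 counts in wild-type and 373, 112 and 84 in Scx-/- libraries (log2 -2.03 ± 0.29, edgeR adjusted p = 1.71e-08), a call lost with filterByExpr and with DESeq2, by which 0 vascular genes were called. In muscle it had 0, 227 and 10 counts against 0 in each Scx-/- library (edgeR adjusted p = 2.41e-05), and in cartilage 0, 42 and 149 against 1, 7 and 0 (log2 -4.18 ± 0.94, edgeR adjusted p = 0.047). The cartilage Scx-/- library with 1 count (replicate 1) had 9 counts of *Scx*, against 0, 7 and 1 in wild-type cartilage, so its label is in doubt, and the difference without it is not given here. In muscle and cartilage 1 wild-type library also had none, so those groups overlapped, and the muscle counts came mostly from the library that held 33 of the 89 counts of *Lep*. Kidney *Ucp1* counts were 10, 50 and 70 in wild-type and 15, 0 and 0 in Scx-/- libraries, without a call.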
